A study of Mus musculus with 6 samples.

Results

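Metallothioneins and the transporters that move zinc or manganese across membranes were followed in single cells of the mouse cortex on postnatal day 5 (P5). They are 9 of the 17418 genes in the count table, chosen by name, namely the metallothioneins *Mt1*, *Mt2* and *Mt3*, the exporters *Slc30a1*, *Slc30a3* and *Slc30a10*, and the importers *Slc39a8*, *Slc39a12* and *Slc39a14*. InDrop, a droplet method that tags the transcripts of each cell with a bead barcode and a unique molecular identifier (UMI), was applied to 3 WT mice (FVB.129P2-Pde6b+ Tyrc-ch/AntJ) and 3 *Fmr1*-KO mice (FVB.129P2-Pde6b+ Tyrc-ch Fmr1tm1Cgr/J) of both sexes, with the cortex dissociated with papain. *Fmr1* encodes FMRP, the RNA-binding protein missing in fragile X syndrome. WT 1 and *Fmr1*-KO 1 and 2 were processed with beads of version V2 (batch 1), the other mice with version V3.8 (batch 2), so batch and bead version cannot be told apart.

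Metallothioneins are small cysteine-rich proteins that bind zinc and copper. The transcription factor MTF1 senses free zinc and induces *Mt1*, *Mt2* and the zinc exporter *Slc30a1* through metal response elements, and glucocorticoids also induce *Mt1* and *Mt2*. Proteins of the SLC30 family (ZnT) move metal out of the cytosol, while those of the SLC39 family (ZIP) bring it in, and in the brain astrocytes and the vessel wall handle most of the metal that reaches neurons.

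The 3 metallothionein genes lie side by side on the plus strand of chromosome 8 in mm10 (GENCODE vM21), *Mt3* at chr8:94152607-94154146, *Mt2* at chr8:94172664-94173568 and *Mt1* at chr8:94179082-94180327. *Mt2* ends 5.51 kb before *Mt1* starts, and *Mt3* ends 18.5 kb before *Mt2*. The transporters are spread over the genome, with *Slc30a10* at chr1:185454848-185468762, *Slc30a1* at chr1:191906767-191913247, *Slc39a12* at chr2:14388316-14494977, *Slc39a8* at chr3:135825279-135888572, *Slc30a3* at chr5:31086106-31108237 and *Slc39a14* at chr14:70303469-70351425. RefSeq promoter windows of GRCm38.p6, from 250 bases before to 50 after a start, were matched for 8 of the 9 genes (10 windows), all but *Slc39a14*. Below are the windows of the 3 genes for which induction by zinc is best known, with the core of the metal response element in capitals (TGCACNC or TGCGCNC, on either strand).

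Mt1, chr8:94178839-94179138, plus strand: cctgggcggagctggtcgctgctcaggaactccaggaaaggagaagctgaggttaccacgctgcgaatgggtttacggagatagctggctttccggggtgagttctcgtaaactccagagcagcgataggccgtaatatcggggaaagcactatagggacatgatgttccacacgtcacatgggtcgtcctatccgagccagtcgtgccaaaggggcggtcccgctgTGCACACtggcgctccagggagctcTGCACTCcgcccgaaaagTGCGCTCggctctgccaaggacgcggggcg
Mt2, chr8:94172368-94172667, plus strand: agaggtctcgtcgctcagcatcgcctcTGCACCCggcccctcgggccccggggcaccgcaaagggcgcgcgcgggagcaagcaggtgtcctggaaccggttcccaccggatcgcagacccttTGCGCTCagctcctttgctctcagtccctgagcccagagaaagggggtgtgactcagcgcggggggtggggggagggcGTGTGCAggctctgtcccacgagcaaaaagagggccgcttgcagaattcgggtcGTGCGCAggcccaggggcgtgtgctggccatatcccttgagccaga
Slc30a1, chr1:191906531-191906830, plus strand: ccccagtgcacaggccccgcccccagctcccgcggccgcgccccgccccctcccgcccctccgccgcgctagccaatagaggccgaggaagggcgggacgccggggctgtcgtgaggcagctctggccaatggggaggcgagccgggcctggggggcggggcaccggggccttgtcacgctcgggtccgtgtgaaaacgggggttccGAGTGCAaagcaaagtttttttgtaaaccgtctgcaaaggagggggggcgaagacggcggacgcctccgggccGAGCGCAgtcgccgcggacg

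*Mt1* had 3 matches to the core, *Mt2* had 4 and *Slc30a1* had 2. Among 32851 promoters of the same length 25.7% held at least 1 match, 1.97% held 3 or more and 0.517% held 4 or more. *Slc30a10* also had 3 matches, of which the first 2 overlap on opposite strands, while *Mt3* had 1. *Mt2*, *Slc30a1* and *Slc39a8* each had 1 match to the antioxidant response element (TGAC and GC with 3 bases of any kind between them, on either strand), which 12.4% of promoters held. The glucocorticoid response element (AGAACA and TGTTCT with 3 bases between them) was in none of the 10 windows and in 3 of the 32851 promoters. These matches describe letters in a window and not binding.

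The table held 18393 cells in 17 libraries, of which 17280 remained in 18 subtypes after the cells marked as doublets by the authors were left out, and each mouse had from 7909181 to 20629134 UMIs. Barcodes were compared over all 18393 cells, with the doublets as a subtype of their own. Within a mouse 3307 pairs of cells shared a barcode, 93.3% of them in the same subtype, against 468 pairs and 16.7% between mice. Cells that repeat a barcode were 3.05% to 26.1% of the cells of a mouse, doublets included, so the libraries of a mouse are not independent. Of 36 markers of 9 cell types, 34 were highest in the subtype of that label, the exceptions being *Cspg4* and *Olig1* of the OPC list. *Fmr1* itself had 82.3, 80.3 and 80.1 CPM (UMIs of the gene per 1000000 UMIs) in Astrocytes_1 of WT 1, WT 2 and WT 3, against 17.7, 18.1 and 18.3 CPM in those of *Fmr1*-KO 1, 2 and 3.

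Levels are given as CPM of the UMIs summed over the cells of a mouse and subtype, for mice with at least 10 cells of it, and values per mouse follow the order of replicates 1, 2 and 3 of a genotype. Subtypes were made by the authors from the same counts, so levels between subtypes are a description with no test. Such sums cannot tell fewer positive cells from less RNA per cell, and therefore shares of cells are given too. A share rises with depth, and so cells were also thinned to 700 UMIs, which left out the 53 cells of the table below that depth.

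*Mt1* was highest in ependymal cells, which line the ventricles, at 2801 ± 369 CPM (SD, n = 6 mice), followed by Astrocytes_1 (1409.6 ± 748), Astrocytes_2 (919 ± 488) and microglia (334 ± 108). Ependymal cells were above Astrocytes_1 in 5 of 6 mice, all but WT 3, and Astrocytes_1 above Astrocytes_2 in 6 of 6, though the ranges over mice overlapped in both cases. Pericytes had 229.8 ± 182 CPM, OPC_1 85.3 ± 22.9 and endothelial cells 26.3 ± 10.7. In thinned cells a *Mt1* UMI was found in 73.9% of ependymal cells, 52.4% of Astrocytes_1 and 17.8% of microglia (means over 6 mice), against 83.8% of Astrocytes_1 before thinning. In thinned endothelial cells, at a median depth of 3687 UMIs before thinning against 3755 in Astrocytes_1, the share was 2.73%. Free RNA could also give such UMIs, and its part in this share was not tested.

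*Mt2* had the same order at the top, with 2385 ± 305 CPM in ependymal cells, 1016 ± 597 in Astrocytes_1 and 532 ± 256 in Astrocytes_2. Below these it had 143 ± 78.6 CPM in fibroblasts (n = 3 mice) and 83.2 ± 19.9 in microglia. *Mt2* was the gene most like *Mt1* over the 14 subtypes with 100 or more cells (Pearson r = 0.95 of log2(CPM + 1), among 13489 genes), followed by *BC026585* (0.92) and *Mamdc2* (0.90). After *Mt1*, the genes most like *Mt2* were *Kcne1l* (0.90) and *4932438H23Rik* (0.89). These are correlations across subtypes that share mice and libraries, not across replicates. Among thinned cells of a single mouse in Astrocytes_1 the UMIs of *Mt1* and *Mt2* correlated weakly, with r from 0.088 to 0.355 over the 6 mice, and those of *Mt1* and *Mt3* from -0.011 to 0.077.

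*Mt3*, the metallothionein best known from brain, had 763 CPM in ependymal cells, 675 in Astrocytes_1 and 539 in Astrocytes_2 as means of 6 mice, but these means hide a split by batch. In Astrocytes_1 it was at 1169.7, 1056 and 1174 CPM in WT 1, *Fmr1*-KO 1 and *Fmr1*-KO 2 of batch 1, and at 226, 186 and 235 CPM in WT 2, WT 3 and *Fmr1*-KO 3 of batch 2. All mice of batch 1 were thus above all mice of batch 2 whatever their genotype, by 5.24-fold on the means. Batches did not overlap for 52.9% of the 4814 genes compared in Astrocytes_1, but just 12 of them (0.249%) differed as far between batches. Astrocytes_2 had 930.2 ± 83.5 CPM in batch 1 and 147 ± 31.0 in batch 2 (SD, n = 3 each), and ependymal cells had 1402, 788 and 1576 CPM against 314, 183 and 313. *Mt3* was without overlap between batches in each of the 11 types compared, which include all neurons together beside their larger subtypes. Its log2 differences of batch 2 minus batch 1 ran from -3.64 in pericytes to -2.21 in endothelial cells. *Mt1* and *Mt2* went the other way in Astrocytes_1, at 1.03 on the log2 scale for each, and 2.74% and 2.76% of the genes differed as far. Batch 2 had 1894 ± 827 CPM of *Mt1* and 1364 ± 723 of *Mt2* (SD), with WT 3 highest for both, so these 2 means rest much on that mouse. The part of the bead version in these differences between batches was not tested, and the level of *Mt3* is comparable within a batch only.

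**Figure D1:**
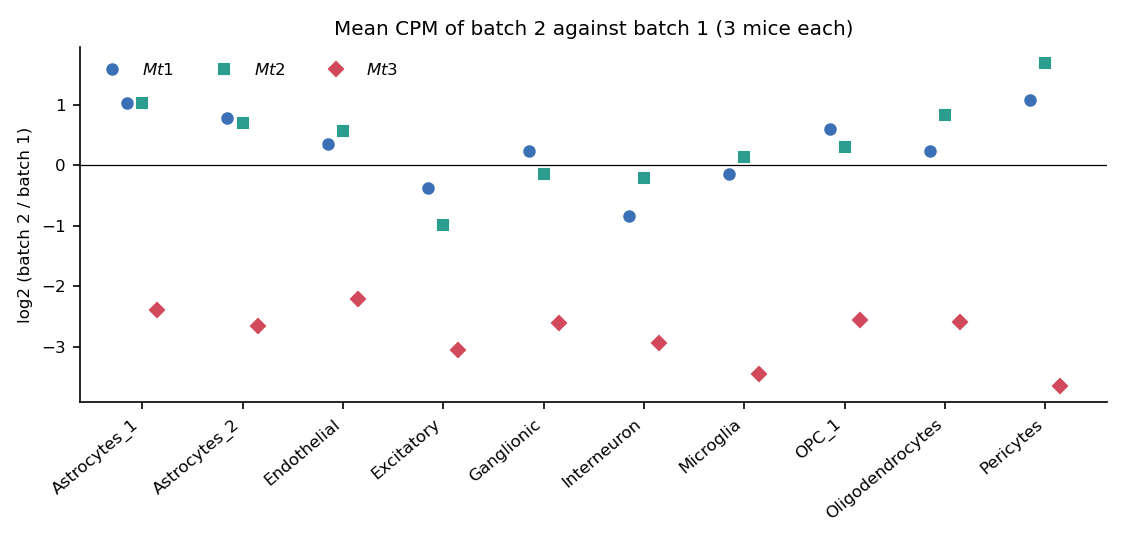
Log2 ratio of the mean CPM of batch 2 (V3.8 beads) over that of batch 1 (V2 beads), 3 mice each, for *Mt1*, *Mt2* and *Mt3* in 10 subtypes. *Mt3* lies between -3.64 and -2.21 in each subtype, while *Mt1* and *Mt2* lie on both sides of 0.

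Within batch 1 *Mt3* had 83.2 ± 11.6 CPM in excitatory neurons, 76.9 ± 8.95 in OPC_1 and 17.0 ± 2.83 in endothelial cells (SD, n = 3). Astrocytes_2 was above excitatory neurons in 6 of 6 mice without overlap of the ranges. The genes most like *Mt3* over subtypes were *P4ha3* (r = 0.97), *Slc39a12* (0.95) and *4932438H23Rik* (0.94).

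Among the exporters, *Slc30a1*, which moves zinc out through the plasma membrane, was highest in endothelial cells at 216, 235 and 247 CPM in WT mice and 273, 245 and 184 in *Fmr1*-KO mice. The next subtype with 6 mice was Astrocytes_1 at 56.4 ± 9.23 CPM, and the 2 ranges did not overlap. A UMI was found in 14.4% of thinned endothelial cells against 3.49% of thinned Astrocytes_1. Astrocytes_1 and ependymal cells (53.6 ± 15.8 CPM) did not differ beyond their spread. *Cdkn2b* (r = 0.90), *Slc2a1* (0.88), the glucose transporter of the blood-brain barrier, and *Fuk* (0.87) had the most similar pattern.

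*Slc30a3*, which loads zinc into synaptic vesicles of glutamatergic neurons, was found mainly in excitatory neurons, at 37.3, 59.6 and 36.3 CPM in WT mice and 57.2, 78.0 and 34.5 in *Fmr1*-KO mice. The genotypes overlapped. These cells held 377 UMIs of *Slc30a3*, and interneurons held 6. In thinned cells 3.02% of excitatory neurons and 0.109% of interneurons had a UMI, at median depths of 1274 and 2469 UMIs before thinning. Its pattern was most like those of *Cyp2j13* (r = 0.93), *Pcnxl2* (0.90) and *Plcxd2* (0.90). *Slc30a3* was under 15% of cells in each type and was not tested for genotype.

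*Slc30a10*, which exports manganese, was highest in pericytes, the contractile cells around capillaries, at 200.3, 172 and 153 CPM in WT mice and 182, 229 and 159 in *Fmr1*-KO mice. Fibroblasts had 114 ± 28.6 CPM (n = 3 mice) and Astrocytes_1 had 105 ± 14.8 (n = 6), and these overlapped each other, while pericytes lay above fibroblasts in 3 of 3 mice. Astrocytes_2 was lower than Astrocytes_1 in 6 of 6 mice, at 56.2 ± 17.4 CPM, without overlap. Endothelial cells, the neighbours of pericytes in the vessel wall, had 15.7 ± 11.5 CPM. *Sec62* (r = 0.94) and *Ptn* (0.91) were among the genes with the most similar pattern.

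Of the importers, *Slc39a8*, which takes up zinc and manganese, was concentrated in endothelial cells, at 405, 696 and 652 CPM in WT mice and 443, 357 and 577 in *Fmr1*-KO mice. These values split by batch without overlap, with 401.8 ± 42.7 CPM in batch 1 and 641.7 ± 59.8 in batch 2 (SD). Of the genes compared there 15.9% differed as far between batches. Microglia came next at 51.9 ± 21.1 CPM, lower in 6 of 6 mice by 10.1-fold on the means, with no overlap of the ranges. In thinned cells 25.9% of endothelial cells had a UMI, against 2.82% of microglia and 1.36% of Astrocytes_1. Pericytes, which share the vessel, had 3.75 ± 2.71 CPM. *Kcnj2* (r = 0.91), *Ctla2b* (0.89) and *Prcp* (0.89) were most like it, each also highest in endothelial cells.

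*Slc39a12*, a zinc importer of brain, was at 139 ± 36.3 CPM in Astrocytes_1, 78.1 ± 24.5 in Astrocytes_2 and 57.0 ± 27.8 in ependymal cells, and at 4.02 ± 1.85 in excitatory neurons. Astrocytes_1 was above Astrocytes_2 in 6 of 6 mice, although the ranges overlapped. *Mt3* (r = 0.95), *Ttpa* (0.95), the transfer protein of vitamin E, and *P4ha3* (0.94) had the most similar pattern. *Slc39a14*, an importer of manganese, zinc and iron, was low in each subtype. In endothelial cells it differed by batch, with 27.0, 7.87 and 32.3 CPM in WT 1, *Fmr1*-KO 1 and *Fmr1*-KO 2 (9, 4 and 27 UMIs), and 0.0, 0.875 and 0.568 CPM in WT 2, WT 3 and *Fmr1*-KO 3 (0, 2 and 1 UMIs). OPC_1 led with 26.9, 41.0 and 32.0 CPM in WT mice and 16.9, 29.8 and 16.1 in *Fmr1*-KO mice. Cajal-Retzius (CR) cells had 23.5 ± 13.4 CPM (n = 5) from 16 UMIs in all and Astrocytes_1 had 21.5 ± 4.08 CPM, so the order of these 3 is not resolved. *Lmcd1* (r = 0.84), *Canx* (0.84) and *Tmem255a* (0.80) were most like it.

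**Figure D2:**
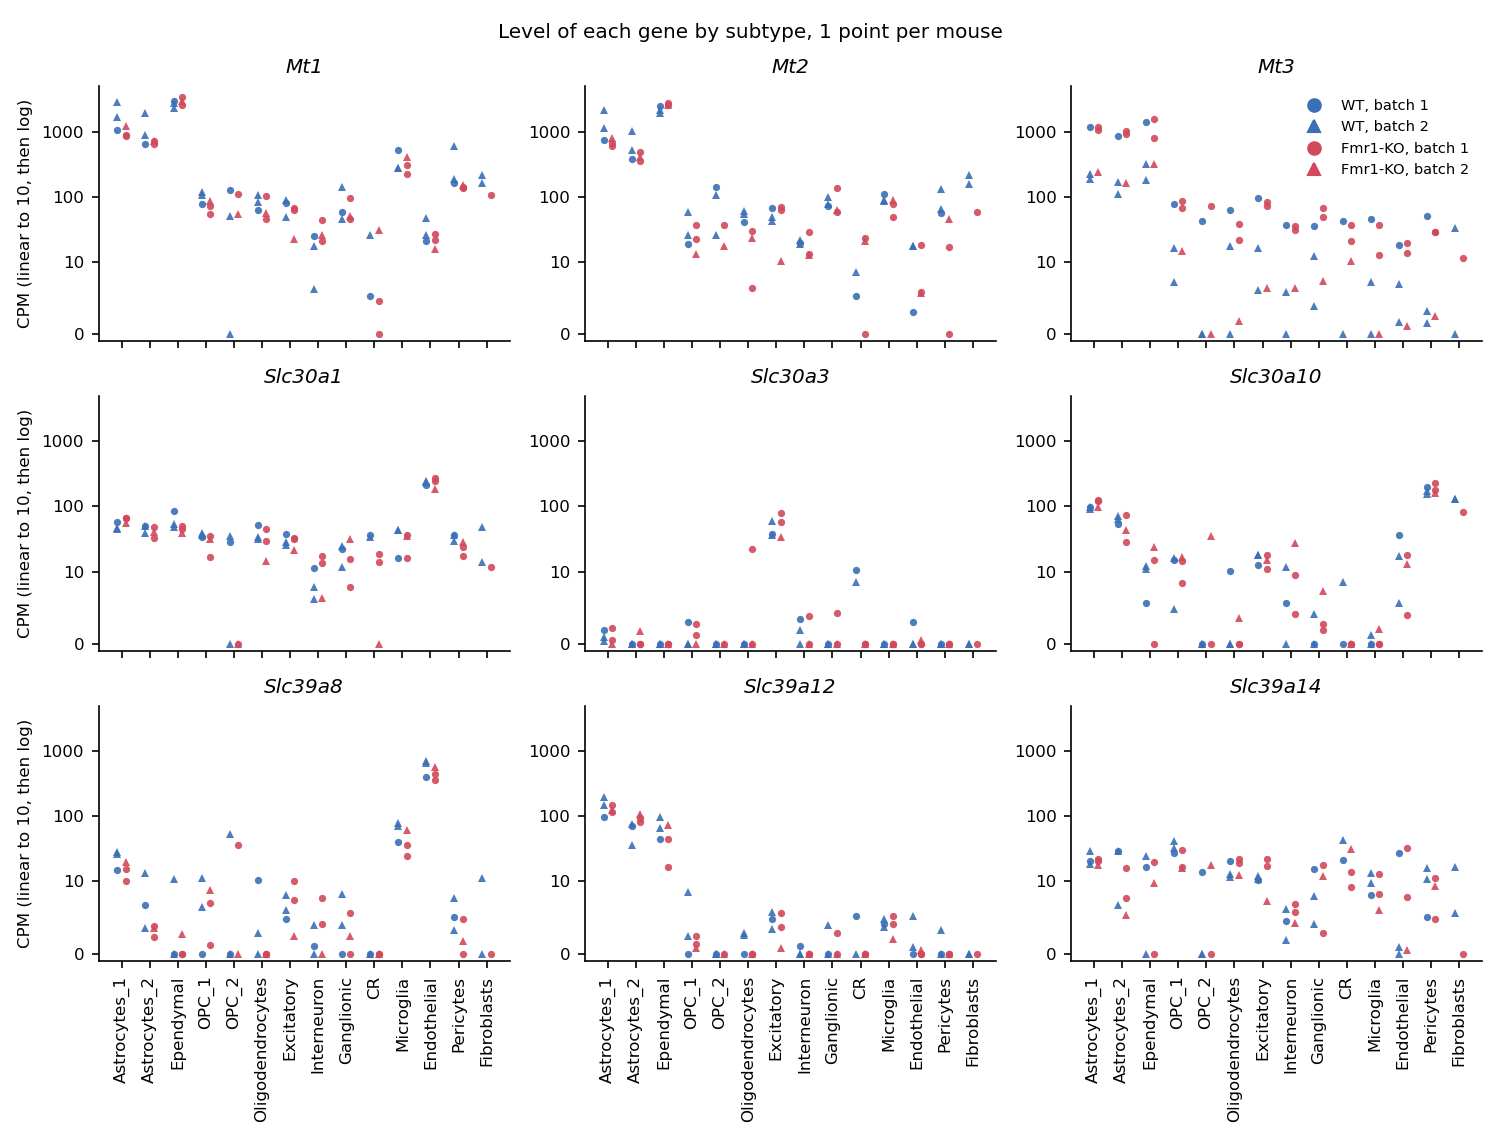
CPM of each of the 9 genes in the 14 subtypes with 100 or more cells, on an axis linear up to 10 and logarithmic above, with 1 point per mouse that had at least 10 cells (blue WT, red *Fmr1*-KO, circles batch 1, triangles batch 2). *Mt1*, *Mt2*, *Mt3* and *Slc39a12* are highest in astrocytes and ependymal cells, *Slc30a1* and *Slc39a8* in endothelial cells, *Slc30a10* in pericytes and *Slc30a3* in excitatory neurons.

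Genotypes were then compared within each of 11 cell types with at least 100 cells per genotype. All neurons together counted as a type beside the excitatory, interneuron and ganglionic subtypes, so these types share cells. Sums per mouse were tested with the batch as a covariate (edgeR's quasi-likelihood test), restricted to genes found in 15% or more of the cells of the type. A gene counted as changed at FDR under 0.01 with a difference of at least 15%. Of the 9 genes 7 reached that share in at least 1 type, which gave 20 tests in 8 types, and *Slc30a3* and *Slc39a14* gave none. edgeR called 0 of the 20, with FDR of at least 0.895, and DESeq2 also called 0. Over all genes the same rule called 0.0208% in Astrocytes_1, 0.0499% in ganglionic cells, 0.0245% in OPC_1, 0.0423% in oligodendrocytes and 0.0% in Astrocytes_2, endothelial cells, microglia and pericytes. At an unadjusted p under 0.05 edgeR gave 6 of the 20, 3 of them lower and 3 higher in *Fmr1*-KO mice, and DESeq2 gave 0. These 6 were 4 of the 6 genes tested in Astrocytes_1, where 4.65% of all genes passed, 1 of 5 in Astrocytes_2, where 4.26% did, and 1 of 2 in pericytes, where 3.29% did. They share the same 6 mice and are not independent. The authors had already reported lower *Mt1* and *Mt2* and higher *Slc30a10* in *Fmr1*-KO astrocytes from these same cells. The shares of all genes therefore do not measure how unusual these counts are. The authors ran edgeR with size factors of single cells and gave results per major cell type. Here mice were the replicates and the astrocyte subtypes were tested apart, so the 2 sets of calls are not alike in unit or cells. The sign was the same within both batches in 10 of the 20.

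*Mt1* in Astrocytes_1 had 1049, 1674 and 2809 CPM in WT 1, WT 2 and WT 3, and 852, 873 and 1200.4 CPM in *Fmr1*-KO 1, 2 and 3. WT 3 stood far above the other mice. The genotypes overlapped across batches only, since *Fmr1*-KO 3 of batch 2 was above WT 1 of batch 1. Within each batch the *Fmr1*-KO mice were below the WT mice, but the share of all genes ordered so was not computed. The log2 difference of *Mt1* (*Fmr1*-KO minus WT) was -0.58 (SE 0.22, edgeR FDR = 0.92). It was -0.28 within batch 1 (1 WT and 2 *Fmr1*-KO mice) and -0.90 within batch 2 (2 WT mice and 1 *Fmr1*-KO mouse). Without WT 3 it was -0.35 and without *Fmr1*-KO 3 it was -0.27. In the same cells *Mt2* had 743, 1121 and 2177 CPM in WT mice and 657, 607 and 793 in *Fmr1*-KO mice. WT 3 was again on top, and the genotypes again overlapped across batches only, with *Fmr1*-KO 3 above WT 1. The log2 difference of *Mt2* was -0.64 (SE 0.28, edgeR FDR = 0.92), with -0.23 within batch 1 and -1.06 within batch 2. It was -0.33 without WT 3 and -0.22 without *Fmr1*-KO 3. With no filter on low counts *Mt1* (edgeR FDR = 9.7e-05) and *Mt2* (edgeR FDR = 9.8e-06) passed in Astrocytes_1, as did 0.28% of 16062 genes.

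The 3 libraries of WT 3 had 2731 to 2879 CPM of *Mt1* in Astrocytes_1, those of WT 2 1587 to 1736, those of *Fmr1*-KO 3 1165 to 1243, and those of the 3 mice of batch 1 767 to 1105. WT 3 therefore stood apart in each of its libraries. Libraries of 1 mouse differed more for other genes, with 551 to 834 CPM of *Mt2* in *Fmr1*-KO 1, 909 to 1426 CPM of *Mt3* and 93.2 to 146 CPM of *Slc30a10* in *Fmr1*-KO 2. In thinned Astrocytes_1 no *Mt1* UMI was found in 51.8%, 38.4% and 21.2% of WT cells (WT 1, 2 and 3) and in 60.7%, 63.7% and 49.6% of *Fmr1*-KO cells. At least 5 UMIs were found in 8.66% of the cells of WT 3 and in 0.139% to 1.82% of those of the other mice.

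**Figure D3:**
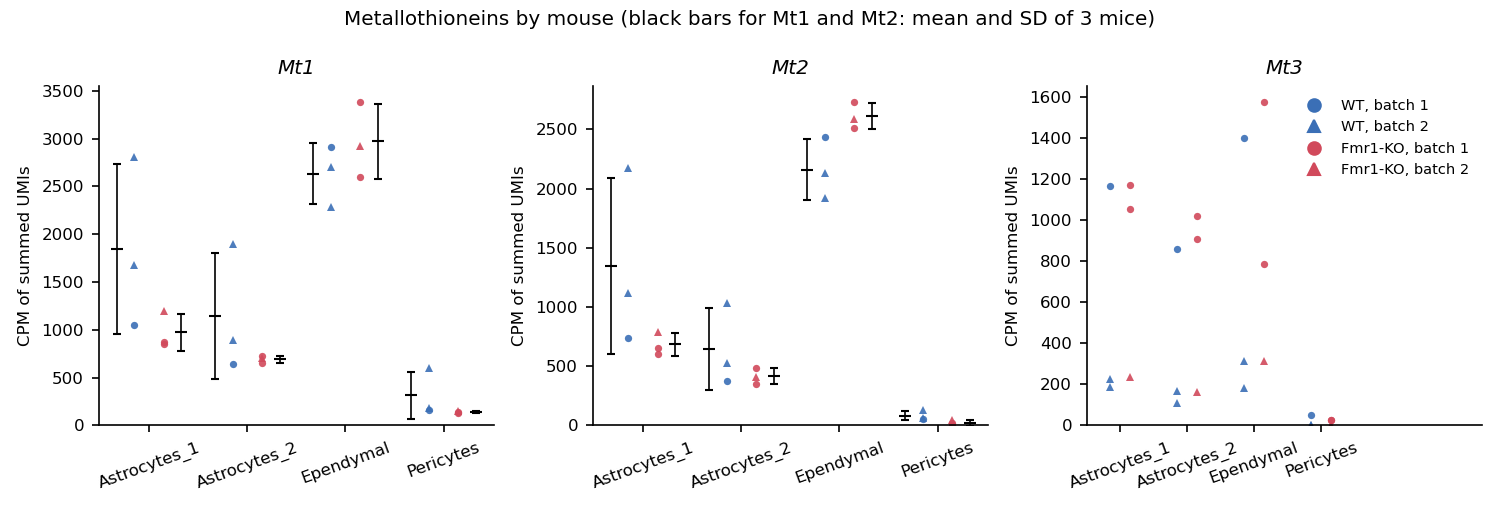
CPM of *Mt1*, *Mt2* and *Mt3* in 4 subtypes with 1 point per mouse (blue WT, red *Fmr1*-KO, circles batch 1, triangles batch 2), and the mean and SD of the 3 mice of a genotype in black for *Mt1* and *Mt2*. WT 3 is the highest mouse for *Mt1* and *Mt2* in both astrocyte subtypes and in pericytes but not in ependymal cells, and *Mt3* separates by batch.

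WT 3 was also the highest mouse for *Mt1* in Astrocytes_2 (644, 896 and 1897 CPM in WT mice, 722, 651 and 704 in *Fmr1*-KO mice). There the log2 difference was -0.46 (SE 0.25, edgeR FDR = 0.99), with 0.093 within batch 1 and -0.99 within batch 2. *Mt2* in Astrocytes_2 was at -0.40 (SE 0.25, edgeR FDR = 0.99), with 0.16 and -0.92 within the batches. Pericytes had 164, 185 and 599.8 CPM of *Mt1* in WT mice and 134, 143 and 153 in *Fmr1*-KO mice, without overlap. Their log2 difference was the most negative of the 20, at -1.02 (SE 0.38, edgeR FDR = 0.996), and was -0.26 both without WT 3 and without *Fmr1*-KO 3. Genotypes did not overlap for 6.62% of the genes tested in pericytes. *Mt1* was tested in 7 types and the estimate was negative in each, with -0.48 (SE 0.39) in oligodendrocytes, -0.33 (SE 0.16) in OPC_1, -0.25 (SE 0.35) in ganglionic cells and -0.15 (SE 0.25) in microglia. In OPC_1 both batches gave similar values, at -0.28 and -0.39, while microglia had -0.96 within batch 1 and 0.53 within batch 2. The sign turned in 4 of the 7 types under some alternative, reaching 0.096 in Astrocytes_2 and 0.22 in oligodendrocytes (both without *Fmr1*-KO 3), 0.35 in ganglionic cells (thinned) and 0.60 in microglia (without WT 1). The types come from the same mice and do not count as separate evidence.

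Ependymal cells were too few for a test (12 to 121 per mouse). *Mt1* had 2909.7, 2286 and 2703 CPM there in WT mice and 2599, 3383 and 2926 in *Fmr1*-KO mice, with overlap. *Mt2* had 2433, 1918 and 2128 CPM in WT mice and 2515, 2731 and 2587 in *Fmr1*-KO mice, which lay above all WT mice, as 7.3% of 5797 genes were without overlap in either direction there. WT 3 did not lead in the cells with the highest level of either gene.

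*Mt3* did not pass in either astrocyte subtype, with a log2 difference of 0.070 (SE 0.11, edgeR FDR = 0.95) in Astrocytes_1 and 0.18 (SE 0.16, edgeR FDR = 0.99) in Astrocytes_2. Without the batch term the estimates were 0.65 (edgeR FDR = 0.995) and 0.80 (edgeR FDR = 0.999), and with the replicate number as a block 0.82 (edgeR FDR = 0.85) and 1.02 (edgeR FDR = 0.43), so no setting made the call.

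For the exporters the values in Astrocytes_1 were small and had the same sign in both batches. *Slc30a1* had 58.4, 46.8 and 45.2 CPM in WT mice and 67.2, 65.6 and 54.9 in *Fmr1*-KO mice. Its genotypes overlapped across batches only, with WT 1 of batch 1 above *Fmr1*-KO 3 of batch 2. Its log2 difference was 0.23 (SE 0.096, edgeR FDR = 0.92), with 0.18 and 0.25 within the batches. *Slc30a10* had 97.9, 96.3 and 89.8 CPM in WT mice and 125, 122 and 99.1 in *Fmr1*-KO mice, without overlap, as had 6.21% of the genes tested there. Its log2 difference was 0.22 (SE 0.095, edgeR FDR = 0.92), with 0.34 and 0.090 within the batches. In their own leading types the estimates of the main fit were near 0. They were -0.051 (SE 0.17) for *Slc30a1* in endothelial cells and -0.0056 (SE 0.20) for *Slc30a10* in pericytes. Over 15 alternatives *Slc30a1* there ranged from -0.59 to 0.24 and *Slc30a10* from -0.063 to 0.10. *Slc30a10* in Astrocytes_2 was at -0.36 (SE 0.32, edgeR FDR = 0.99).

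Of the importers, *Slc39a8* in endothelial cells was at -0.070 (SE 0.15, edgeR FDR = 0.895) and *Slc39a12* in Astrocytes_1 at -0.017 (SE 0.23, edgeR FDR = 0.998). *Slc39a12* in Astrocytes_1 had 0.46 within batch 1 and -0.46 within batch 2, with 95.7, 148 and 200.2 CPM in WT mice and 149, 114 and 126 in *Fmr1*-KO mice. In Astrocytes_2 it had 71.4, 77.1 and 36.0 CPM in WT mice and 95.5, 80.7 and 108 in *Fmr1*-KO mice, without overlap, as had 7.15% of the genes there, and WT 3 was the lowest mouse. The log2 difference was 0.57 (SE 0.26, edgeR FDR = 0.99), with 0.30 and 0.92 within the batches, from 10 UMIs in WT 3 to 61 in *Fmr1*-KO 3. In the same cells markers of ependymal cells (3 genes, 2 of them at 0 in at least 1 mouse) summed to at most 44.2 CPM in WT mice and to 65.3 to 90.3 CPM in *Fmr1*-KO mice, and those of oligodendrocytes (3 genes, 1 at 0 in all mice) to 20.1 to 27.2 and 31.8 to 205 CPM, both without overlap. Their part in this value was not tested.

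**Figure D4:**
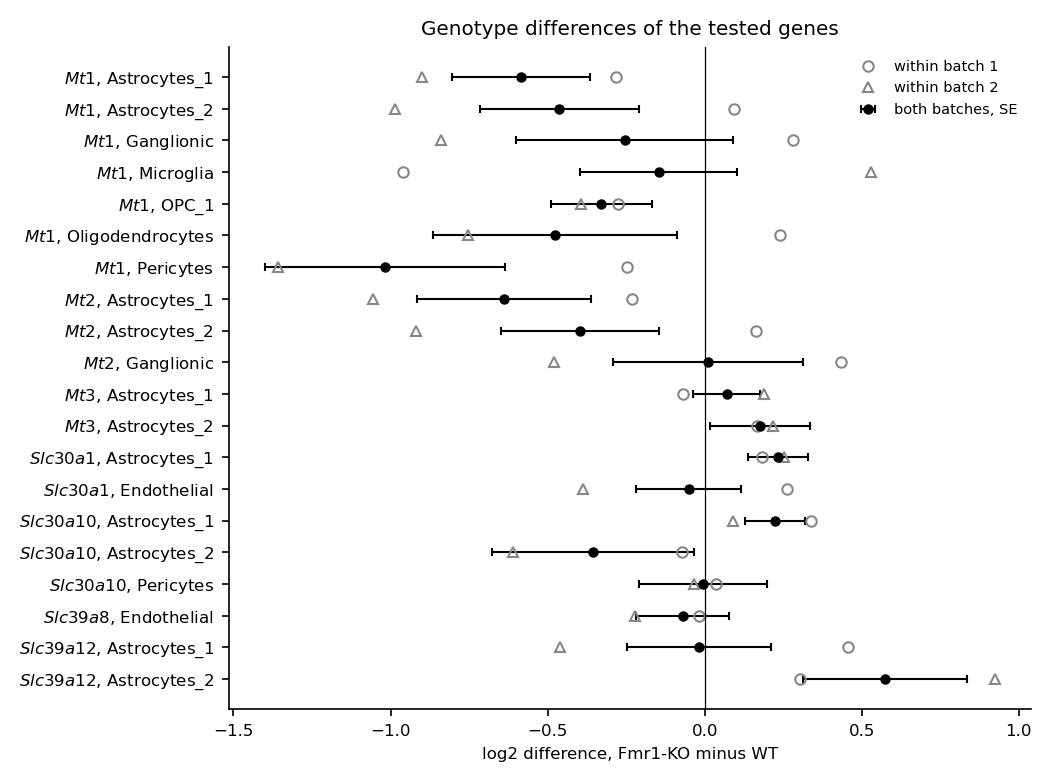
Log2 difference (*Fmr1*-KO minus WT) of each of the 20 tests, in black with its SE, and the values within batch 1 (open circles) and batch 2 (open triangles) in grey. No test passed FDR under 0.01. The lowest value is -1.02 for *Mt1* in pericytes, and batch 2 lies below batch 1 for *Mt1* in 6 of the 7 types.

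Whether the genotype effect differed between Astrocytes_1 and another type was tested as an interaction of genotype and type, with each mouse blocked. Of 13 such tests 0 passed FDR under 0.05 (lowest edgeR FDR = 0.83), and 3 had an unadjusted p under 0.05. These were *Mt2* in ganglionic cells (0.89 minus Astrocytes_1 on the log2 scale, SE 0.35, edgeR FDR = 0.896), *Mt2* in Astrocytes_2 (0.32, SE 0.14, edgeR FDR = 0.85) and *Slc30a10* in Astrocytes_2 (-0.65, SE 0.30, edgeR FDR = 0.88). Over all genes 159 of 3205 had such a p for ganglionic cells and 213 of 3888 for Astrocytes_2. Other tools were not run on this comparison.

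Related genes in Astrocytes_1 were taken from lists chosen by family or response. Of 4 genes in the list of metallothioneins and their factor 3 were lower at an unadjusted p under 0.05 (median -0.46, against 0.0016 over all 4814 genes), *Mt1*, *Mt2* and *Mtf1*. Such a p was found for 4.65% of all genes tested there. *Mt1* and *Mt2* are members given above, so only *Mtf1* is added by this list. *Mtf1* had 44.0, 44.7 and 45.9 CPM in WT mice and 32.2, 41.7 and 33.7 in *Fmr1*-KO mice, without overlap (log2 difference -0.34, SE 0.13, edgeR FDR = 0.92). Genotypes did not overlap for 6.21% of the genes tested in Astrocytes_1. Of 6 tested zinc exporters 2 had such a p, both higher and both members given above (*Slc30a1* and *Slc30a10*, list median 0.00065). Of 5 tested ZIP importers none had (median 0.037). Among 10 tested genes of manganese, iron and copper handling 1 was lower, *Sod2*, the manganese superoxide dismutase of mitochondria (log2 difference -0.24, SE 0.087, edgeR FDR = 0.92). None of the genes of these lists passed FDR under 0.01.

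Genes that respond to glucocorticoids also had their highest sum in WT 3. Of 14 listed genes 6 were tested in Astrocytes_1 and all 6 had a negative estimate (median -0.29), as had 49.5% of all genes tested there. An unadjusted p under 0.05, which 4.65% of all genes had, was found for 1 of the 6, *Per1* (log2 difference -0.54, SE 0.18, edgeR FDR = 0.92). The list summed to 908, 1329.6 and 2329.7 CPM in WT 1, WT 2 and WT 3 and to 903, 903 and 1146 CPM in *Fmr1*-KO 1, 2 and 3. WT 3 was again on top, and the genotypes overlapped across batches only, with *Fmr1*-KO 3 above WT 1. None of the 14 genes was at 0 in a mouse. Outside the rule for named genes, and chosen after their values were seen, *Fkbp5* had 70.0 CPM in WT 3 against 4.35 to 11.5 in the other mice, *Zbtb16* 33.5 against 0.580 to 3.23, and *Cdkn1a* 105 against 14.2 to 23.6. In pericytes the list summed to 832, 1629 and 2597 CPM in WT mice and to 937, 733 and 1362 in *Fmr1*-KO mice. The list was highest in WT 3 also in endothelial cells (4062 CPM against 1818 to 3215 in the other mice) and excitatory neurons (832 against 539 to 687), where *Mt1* and *Mt2* together were not. Their sum was 43.8 CPM in endothelial cells of WT 3 and 63.9 in those of WT 2, and 96.4 CPM in excitatory neurons of WT 3 and 148 in those of WT 1. The part of this response in the *Mt1* and *Mt2* values was not tested. *Fkbp5*, *Zbtb16* and *Cdkn1a* were each under 15% of Astrocytes_1 and had no test.

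Early response genes, which dissociation can induce, were high in Astrocytes_1 of all 3 mice of batch 2, with sums of 7065, 10538 and 10805 CPM in WT mice and 5839, 6731 and 10895 in *Fmr1*-KO mice. Of 8 tested 7 had a negative estimate (median -0.089), as had 49.5% of all genes tested there. An unadjusted p under 0.05 was found for 1 of them, *Zfp36* (log2 difference -0.28, SE 0.080, edgeR FDR = 0.92). In Astrocytes_2 WT 3 was above the other mice, at 13114 CPM against 6453 to 10620. In pericytes their sum was also highest in WT 3, at 4895, 8469 and 13702 CPM in WT mice against 5190, 3997 and 8918 CPM. Estimates of these genes were negative for all 10 tested in pericytes and all 9 in endothelial cells. In microglia 1 of 9 was negative and in all neurons together 0 of 6, with 50% of all genes negative in each of these types. The 7 NRF2-responsive genes, which answer oxidative stress, summed to 541, 427 and 421 CPM in WT mice and to 621, 546 and 392 in *Fmr1*-KO mice, with WT 3 among the low mice, and 0 of 5 tested had such a p (median -0.072). Markers of ependymal cells, where *Mt1* is highest, summed to 6.28 to 12.7 CPM over 3 genes in Astrocytes_1 of WT mice and 9.05 to 14.2 CPM in those of *Fmr1*-KO mice, with WT 3 the lowest mouse. Of the other marker lists, that of oligodendrocytes did not overlap between genotypes in Astrocytes_1 (3 genes, 1 of them at 0 in all mice, 16.3 to 30.9 CPM in WT and 53.3 to 105 CPM in *Fmr1*-KO mice), while *Mt1* was at 76.0 CPM in oligodendrocytes themselves. Its part in the results was not tested.

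**Figure D5:**
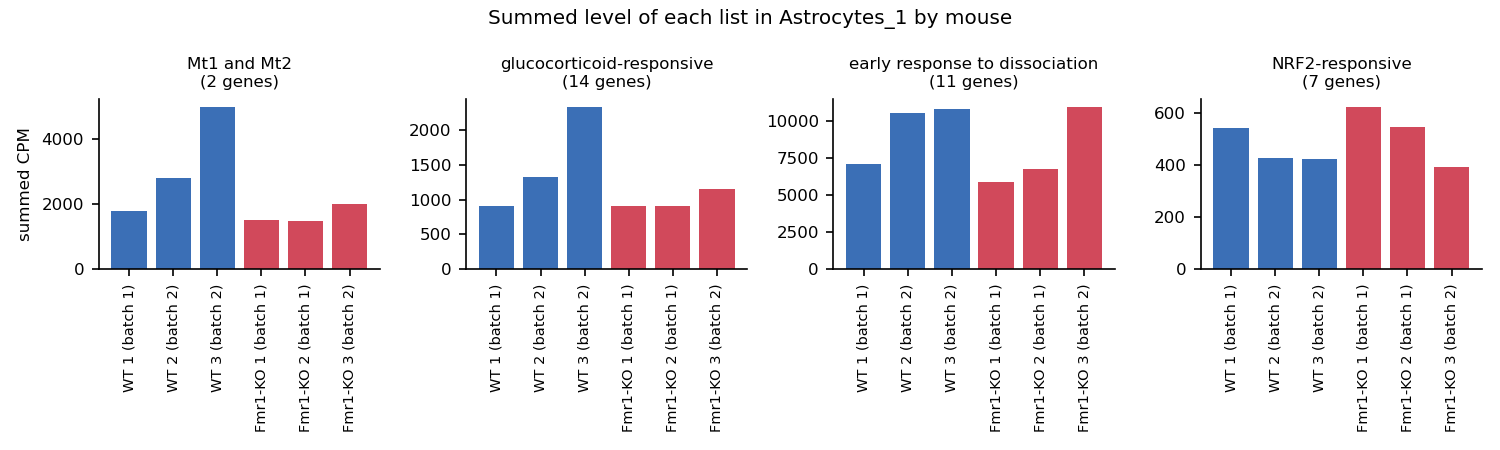
Summed CPM in Astrocytes_1 of *Mt1* and *Mt2*, of 14 glucocorticoid-responsive genes, of 11 early response genes and of 7 NRF2-responsive genes, with 1 bar per mouse (blue WT, red *Fmr1*-KO). WT 3 has the tallest bar in the first and second panels (4986 and 2329.7 CPM), while the early response genes lie between 10538 and 10895 CPM in the 3 mice of batch 2.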

How the data were processed

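The authors aligned InDrop reads to mm10 with TopHat 2.0.14, counted UMIs per RefSeq gene with ESAT while ignoring reads with more than 1 position, and removed barcodes under 700 UMIs. They deposited UMI counts without normalization, and the mouse, type and subtype of each cell. All 17 libraries were used, and 1113 doublets were left out. Counts were summed per mouse and type (at least 10 cells) and tested with edgeR 4.0.16 in R 4.3.3 (TMM, batch as a covariate, Benjamini-Hochberg adjustment within a type). The SE is the log2 difference over the root of the F statistic, and 0.5 CPM was added before ratios within a batch. DESeq2 1.42.0 was an alternative. Sums and figures came from Python 3.11.15 with numpy 2.4.6 and pandas 2.3.3, and the edgeR step was tested on simulated data. Genotype, number and bead version of a mouse come from the labels. P-values of the main fit measure the spread between mice (3 per genotype) left after batch and genotype, with dispersions moderated over all genes tested.

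Members, lists and tests were chosen with earlier results of these data known. Named are the 9 genes, *Fmr1*, in Astrocytes_1 up to 3 genes per list with the smallest unadjusted p below 0.05 whose sign agreed between batches, and the 3 genes most like each member, of which 1 is not reported here. Alternatives were DESeq2, no TMM, dropping the batch, a block for the replicate number, filterByExpr, no filter, thinning to 700 UMIs, FDR under 0.05, each mouse left out, and, chosen after seeing the data, 1 cell per barcode and mouse.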

Additional observations from a re-analysis of the deposited data

How the results depend on the processing

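No member was called under any alternative except with no filter on low counts, which called 2 (*Mt1* and *Mt2* in Astrocytes_1). Leaving out any 1 mouse left the count at 0. With the replicate number as a block in place of the batch *Mt1* in Astrocytes_1 was at -0.82 (edgeR FDR = 0.85) and *Mt2* at -0.84. Deviations of mice with the same number correlated at 0.66, -0.42 and 0.67 over 4814 genes. Batch was not removed from them, and mice of the same number share a batch for numbers 1 and 3 but not for 2. These values therefore cannot show whether the numbers pair the mice. No difference between types passed FDR under 0.05 under any alternative (lowest edgeR FDR = 0.071). With *Mt1* and *Mt2* in Astrocytes_1 each of 15 alternatives kept the sign (-0.92 to -0.27 and -1.05 to -0.22). Signs of other estimates turned. Thinned to 700 UMIs, *Mt3* was at -0.13 in Astrocytes_1 and -0.048 in Astrocytes_2, *Slc39a12* at 0.036 in Astrocytes_1, *Slc39a8* at 0.032 in endothelial cells, *Mt1* at 0.35 in ganglionic cells and 0.26 in microglia, and *Mt2* at -0.24 in ganglionic cells. With 1 cell per barcode and mouse *Slc39a12* in Astrocytes_1 was at 0.0067 and *Mt2* in ganglionic cells at -0.017, and with DESeq2 at 0.0018 and -0.0053. *Slc30a10* in pericytes was at 0.0091 with filterByExpr, 0.099 with no batch term, 0.044 with no filter and 0.10 with the block. Left-out mice also turned signs, over ranges from -0.053 to 0.20 (*Mt3*) and -0.46 to 0.48 (*Slc39a12*) in Astrocytes_1, -1.01 to 0.096 (*Mt1*) and -0.94 to 0.16 (*Mt2*) in Astrocytes_2, -0.26 to 0.24 (*Slc30a1*) in endothelial cells, -0.85 to 0.23 (*Mt1*) and -0.48 to 0.38 (*Mt2*) in ganglionic cells, -0.99 to 0.60 (*Mt1*) in microglia, -0.75 to 0.22 (*Mt1*) in oligodendrocytes and -0.063 to 0.045 (*Slc30a10*) in pericytes, and -0.47 to 0.14 for the effect on *Mt1* in pericytes minus that in Astrocytes_1. The cause was not tested. The highest subtype of 8 of 9 genes was the same with thinned cells and with the mean of CPM per cell, the exception being *Slc39a14* (CR). Doublets carry no other subtype, so leaving them in was not run. Counting error limits the transporters in small subtypes.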

Other observations

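Other genes of the zinc transporter families had peaks of their own, and those named here were chosen after their values were seen. *Slc39a10*, a zinc importer, had its highest mean in endothelial cells at 629 CPM, followed by CR cells at 108 CPM. *Slc39a6* was highest in CR cells (163 CPM) and interneurons (107 CPM) and lowest in endothelial cells (13.9 CPM). *Slc39a4*, the zinc importer of the gut, was at 16.0 CPM in ependymal cells and at 1.71 CPM or less elsewhere. *Slc30a9*, by contrast, ranged from 30.1 CPM in microglia to 75.0 CPM in oligodendrocytes. *Mtf1* was highest in ependymal cells, at 118 CPM, where *Mt1* and *Mt2* were highest too, followed by OPC_2 at 78.9 CPM. These are means over mice for the 14 subtypes with 100 or more cells, described with no test.

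The 39 cells of the Ms4a7_high subtype from WT 3 had 525 CPM of *Mt1* and 131 CPM of *Mt2*. No other mouse had 10 cells of that subtype, so that value has no replicate.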
